A study of Mus musculus with 7 samples.

Results

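The replication-dependent histone genes encode the core histones H2A, H2B, H3 and H4 and the linker histone H1. They were taken as every row of the deposited gene table whose symbol begins with Hist1h, Hist2h, Hist3h or Hist4h. The rule found 71 of 34745 rows, which carry 70 symbols, since Hist2h2bb stands on 2 Ensembl identifiers. By type, 6 rows are H1, 20 H2A, 20 H2B, 12 H3 and 13 H4. Of these, 56 lie on mouse chromosome 13, 11 on chromosome 3, 3 on chromosome 11 and 1 on chromosome 6 (mm10).

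RNA sequencing had been done on naive CD4 T cells, the antigen-inexperienced helper cells, isolated from spleen by negative selection and used without culture. The mutant mice were heterozygous for a gain-of-function allele of PIK3CD (GOF, 4 libraries). Its product, p110delta, is a leukocyte kinase that makes the lipid second messenger PIP3. Controls were wild-type littermates (WT, 3 libraries). All were male C57BL/6 mice aged 8 weeks, and the labels describe no special treatment. The labels do not name the amino acid change of the allele or a Cre driver, so the cells in which it acts are not given. The design text gives 3 to 4 mice per group, and p-values measure the spread between these libraries, each taken as 1 mouse.

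Replication-dependent histone genes lie in clusters, have no introns in the main and are transcribed mostly in S phase, when new DNA is packed into nucleosomes. Their messenger RNAs are unusual in animals because they end in a conserved stem-loop in place of a poly(A) tail. Stem-loop binding protein and the U7 small nuclear ribonucleoprotein cut the transcript just after that hairpin. Resting T cells divide rarely and rely on replacement histones such as H3.3 and H2A.Z, whose mRNAs are polyadenylated and made outside S phase. Some genes of the clusters also give longer polyadenylated mRNAs in cells that have left the cycle. Whether the libraries were made from RNA selected by its poly(A) tail is not stated in the labels, which name a TruSeq RNA kit.

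The hairpin is shown first, because it is the sequence that most rows share. In GENCODE M21 transcripts (GRCm38, the assembly of mm10) 69 of the 71 rows had a model, and 44 of these matched the consensus of the histone stem-loop. Some models without a match are short, with 312 bases in Hist1h4k and 393 in Hist1h2ai, and may end before the hairpin. A missing match is thus not read as a missing hairpin. Hairpins were located only in the longest transcript of a row, which gave 43 of them with 8 different 16-base forms. The commonest, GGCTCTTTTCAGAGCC, was found in 23 rows, 0 of them H4. Of 12 H4 rows with a hairpin 10 began with GGCCC. The capitals below mark the hairpin, and the genes are those whose values are given later.
Hist1h1c, chr13:23739507-23739532, plus strand: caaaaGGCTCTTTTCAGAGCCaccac
Hist3h2a, chr11:58955167-58955192, plus strand: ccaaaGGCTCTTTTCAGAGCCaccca
Hist3h2ba, chr11:58949344-58949369, plus strand: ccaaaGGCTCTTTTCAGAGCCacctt
Hist2h2aa2, chr3:96239779-96239804, minus strand: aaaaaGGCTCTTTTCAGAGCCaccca
Hist1h4i, chr13:22040961-22040986, minus strand: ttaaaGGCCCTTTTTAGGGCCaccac
Hist1h4d, chr13:23581945-23581970, plus strand: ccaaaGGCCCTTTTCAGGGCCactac
Hist1h4m, chr13:21812124-21812147, plus strand: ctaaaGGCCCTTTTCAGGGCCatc

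The annotated transcript ran on for 840 bases after the hairpin in Hist1h1c, for 1643 in Hist3h2a, for 169 in Hist3h2ba, for 770 in Hist1h4d and for 330 in Hist1h4i. It stopped 35 bases after it in Hist2h2aa2 and 3 bases after it in Hist1h4m. For Hist1h4d the deposited locus ends at 23581990 and the model at 23582735, so its counts need not cover those 770 bases. A poly(A) signal (AATAAA or ATTAAA, sense strand) lay in the last 50 bases of an annotated transcript for 17 rows, of which 14 also had the hairpin. The 5 such genes with the highest levels are shown, with the signal in capitals.
Hist1h1c, chr13:23740337-23740366, plus strand: cttctAATAAAaagcgtttagttttcattc
Hist3h2a, chr11:58956792-58956821, plus strand: tgcccAATAAAataagagtacgtgtataac
Hist3h2ba, chr11:58949502-58949531, plus strand: gtattAATAAAtttggttcaattttggcca
Hist2h2be, chr3:96223712-96223738, plus strand: ttattAATAAAgttaccgattagtttc
Hist1h4i, chr13:22040636-22040661, minus strand: tttacATTAAAagtattctatgctaa

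Histone rows held few counts in these libraries, and since the selection of RNA is not known, a low level here cannot be read as low expression. All 71 together held 1606, 1223, 1608 and 1588 counts in GOF libraries 1 to 4, against 1318, 1282 and 1326 in WT libraries 1 to 3. Library totals lay between 14945520 and 16293539 counts in GOF and between 14497957 and 15015783 in WT. The histone rows thus took 0.00975% ± 0.00122 of counts in GOF (SD, n = 4) and 0.00889% ± 0.00031 in WT (SD, n = 3). No count was found in any library for 10 rows, and a count in every library for 16. The 10 were Hist1h1b, Hist1h1t, Hist1h2aa, Hist1h2af, Hist1h2aj, Hist1h2al, Hist1h2an, Hist1h2ba, Hist1h2bp and Hist1h3b, where Hist1h1t, Hist1h2aa and Hist1h2ba are known for expression in testis. A count of 0 allows up to 3 counts, or 0.184 to 0.207 CPM (counts scaled to the library total), by counting error alone. Deposited FPKM, a level scaled by gene length and library total, averaged under 1 in both groups for 59 rows and reached 1 in at least 1 group for 12.

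**Figure D1:**
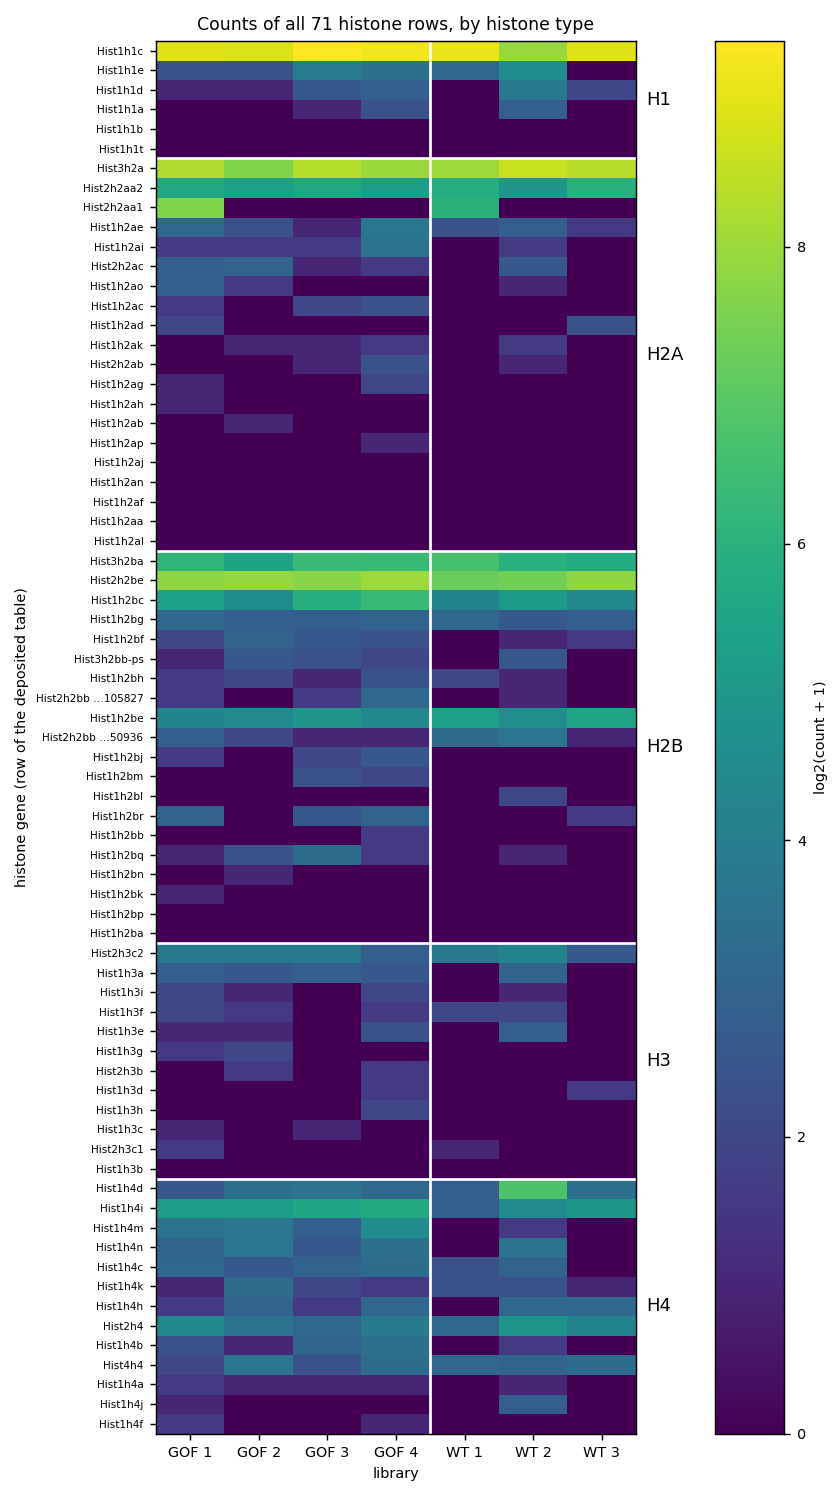
Heat map of log2(count + 1) for the 71 histone rows, grouped by type from H1 at the top to H4 at the bottom and ordered by mean FPKM within a type, with 4 GOF libraries on the left and 3 WT libraries on the right. A few rows such as Hist1h1c, Hist3h2a and Hist2h2be hold most counts, Hist2h2aa1 is filled in GOF 1 and WT 1, and Hist1h4d is brightest in WT 2.

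Few genes carried the signal. Hist1h1c alone gave 26.9% of the summed mean FPKM of the rows. With Hist3h2a, Hist3h2ba, Hist2h2aa2 and Hist2h2be, the top 5 gave 61.95%. Among H3 genes the replacement gene H3f3b, which encodes H3.3, was higher per length. It was at 90.9, 71.1, 90.5 and 79.0 FPKM in GOF libraries, against 85.8, 69.7 and 90.8 FPKM in WT libraries. All 12 rows of replication-dependent H3 together summed to 2.93, 2.56, 1.597 and 2.92 FPKM in GOF, against 1.16, 2.92 and 0.579 FPKM in WT.

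Rows with an annotated poly(A) signal at the end had the higher median level. Of the 48 rows whose deposited locus was the same as in GENCODE M21, 11 had a poly(A) signal in the last 50 bases, and 5 of these had a mean of at least 1 FPKM over the 7 libraries. Of the 37 without one, 3 had. The median of the means was 0.617 FPKM with the signal and 0.136 FPKM without it. The 3 rows without the signal were Hist2h2aa1, Hist2h2aa2 and Hist1h4m. Over all 69 rows with a model the gap was smaller, with medians of 0.268 FPKM with the signal and 0.146 FPKM without it. There 5 of 17 rows with the signal and 5 of 52 without it had a mean of at least 1 FPKM. Among the 48 rows the hairpin was in 9 of the 11 models with the signal and in 18 of the 37 without it. Short models, such as that of Hist1h4k with 312 bases, may end before either feature. The split by signal can therefore also follow how complete a model is. Other properties differed along with the signal. The median longest transcript was 1560 bases with it and 444 bases without it, and the median share of 100-base windows that another gene's transcript also holds was 15.1% with it and 61.6% without it. The part of each in the levels was not tested.

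**Figure D2:**
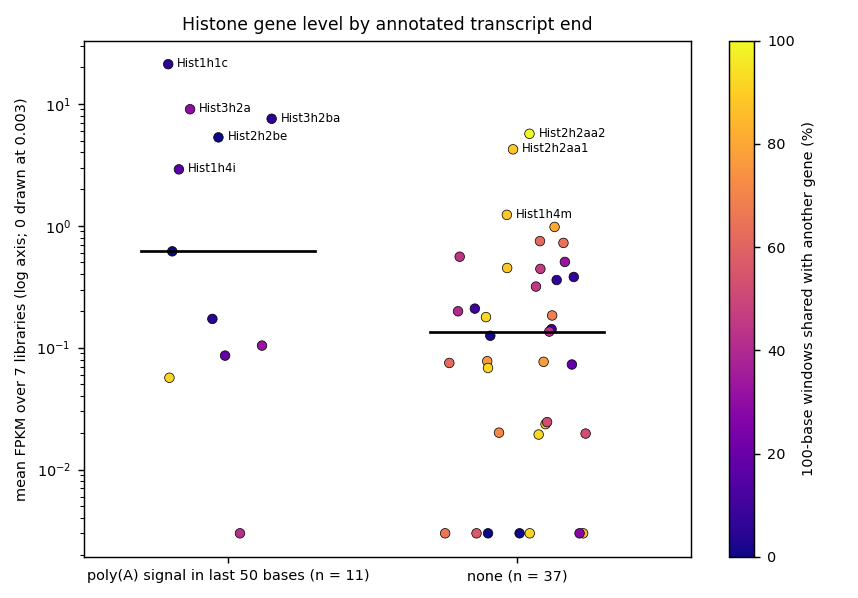
Mean FPKM over 7 libraries (log axis, 0 drawn at 0.003) of the 48 histone rows with the same locus in both annotations, split by a poly(A) signal in the last 50 bases of a transcript, with colour for the share of 100-base windows found in another gene and black lines at the medians. The 11 rows with the signal include Hist1h1c at 21.2 FPKM, and the 37 without it reach 5.69 FPKM in Hist2h2aa2.

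Levels also differed within pairs of neighbours. Pairs were sought among the 69 rows with a GENCODE M21 model, so Hist1h2bm and Hist1h2bh could not be paired. There were 13 such pairs of an H2A and an H2B gene that stood head to head with 172 to 305 bases between their starts. In 10 pairs both genes averaged under 1 FPKM. In the other 3 pairs 1 gene did not. Hist2h2be was at 5.77 ± 0.624 FPKM in GOF (SD, n = 4) and 4.70 ± 1.06 FPKM in WT (SD, n = 3), while its partner Hist2h2ac, 238 bases away, was at 0.505 FPKM in GOF and 0.213 FPKM in WT. Hist1h2bc was at 4.36 FPKM in GOF and 2.21 FPKM in WT, and its partner Hist1h2ac, 274 bases away, at 0.304 FPKM in GOF and at 0 in WT. In the third pair the gene under 1 FPKM was the pseudogene Hist3h2bb-ps (0.449 FPKM in GOF, 0.239 in WT) beside Hist3h2a.

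The regions between the first 2 of these pairs are shown from the RefSeq promoter table (GRCm38.p6), as they are the sequence that both genes of a pair have in common. Each is a window of 300 bases around the H2A start, on the minus strand. Capitals mark, on either strand, the CCAAT box, the TATA element TATAAA and the octamer ATTTGCAT.
Hist2h2ac, chr3:96220831-96221130, minus strand: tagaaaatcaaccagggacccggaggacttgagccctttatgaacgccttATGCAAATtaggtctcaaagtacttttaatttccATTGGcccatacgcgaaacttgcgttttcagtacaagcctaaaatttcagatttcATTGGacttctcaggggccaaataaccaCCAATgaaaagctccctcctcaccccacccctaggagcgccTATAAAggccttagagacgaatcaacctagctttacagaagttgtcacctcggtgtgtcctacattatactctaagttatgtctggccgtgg
Hist1h2ac, chr13:23683910-23684209, minus strand: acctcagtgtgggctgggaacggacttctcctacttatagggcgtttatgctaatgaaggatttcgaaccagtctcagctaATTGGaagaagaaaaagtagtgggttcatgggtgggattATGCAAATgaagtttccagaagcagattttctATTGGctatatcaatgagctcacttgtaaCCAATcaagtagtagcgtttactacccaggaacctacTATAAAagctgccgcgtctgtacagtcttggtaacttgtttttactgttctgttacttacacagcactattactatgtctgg
Both windows hold all 3 motifs. Among 62 promoters of 61 histone symbols in that table, 85.5% held CCAAT, 56.5% TATAAA and 22.6% ATTTGCAT on either strand. Over all 32851 promoters of the same length the shares were 37.4%, 13.6% and 1.74%. The motifs were searched separately, so matches can overlap, and a match is only a description of the sequence.

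The genotypes were compared with edgeR over all 12668 genes that passed its filter on low counts. Of the 71 histone rows 12 passed: 1 H1, 2 H2A, 4 H2B, 1 H3 and 4 H4. Of these 1 was higher and 0 lower in GOF, while over all genes tested 16.8% were higher and 14.5% lower, 31.3% in all. These are 2130 and 1838 genes, against 2527 and 1428 on column totals without TMM scaling. At an unadjusted p under 0.05 the count over the 12 was 3, against 42.5% of all genes tested. DESeq2 called 1 of the 12 higher and 0 lower, against 19% and 16.1% of all genes. For 2 of the 12 no GOF library fell within the WT range, against 39.8% of all genes tested. The median log2 fold change of the 12 was -0.23 and that of all tested genes 0.01. The 59 other rows were not tested.

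**Figure D3:**
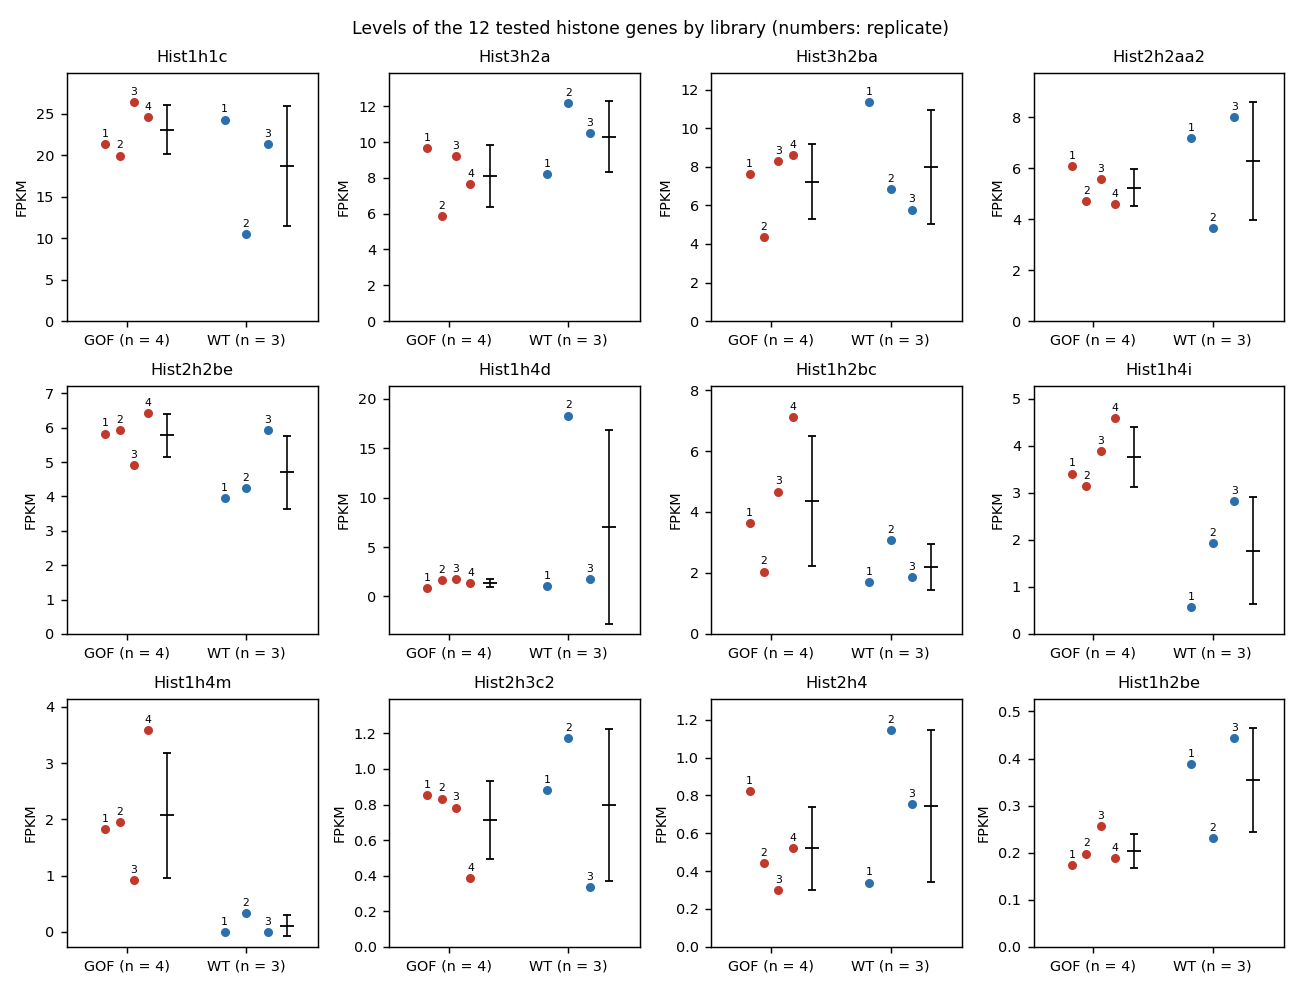
FPKM of the 12 tested histone genes in each library (points, numbered by replicate), GOF on the left and WT on the right, with mean and SD beside the points. The groups overlap in all panels but Hist1h4i and Hist1h4m, and WT 2 alone sets the WT mean of Hist1h4d.

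Linker histone. Hist1h1c (ENSMUSG00000036181, mm10 chr13:23738808-23740367, protein-coding), which encodes the H1.2 linker that binds DNA where it enters and leaves the nucleosome, was the highest histone row. It stood at 21.4, 19.9, 26.4 and 24.6 FPKM in GOF libraries, against 24.3, 10.5 and 21.3 FPKM in WT libraries. The groups overlapped, and the low WT 2 value lay apart from the others. The log2 fold change was 0.23 with an SE of 0.25 (edgeR adjusted p = 0.536), and it turned to -0.062 without WT 2 (adjusted p = 0.786). Of the other H1 rows Hist1h1e was next, with 32 counts over GOF and 31 over WT.

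H2A. Hist3h2a (mm10 chr11:58954685-58956830), a core histone gene that overlaps Trim17, was at 9.67, 5.88, 9.24 and 7.65 FPKM in GOF libraries, against 8.23, 12.2 and 10.5 FPKM in WT libraries. GOF values lay lower on average, with an overlap (log2 fold change -0.42, SE 0.20, edgeR adjusted p = 0.144). Hist2h2aa2 (mm10 chr3:96239749-96240276), which overlaps Gm20632, was at 6.08, 4.71, 5.58 and 4.58 FPKM in GOF, against 7.18, 3.66 and 8.02 FPKM in WT, with overlapping groups (log2 fold change -0.34, SE 0.32, adjusted p = 0.460). Its twin Hist2h2aa1 (mm10 chr3:96245497-96246082) overlaps Gm20633 and Gm20634. It had 193, 0, 0 and 0 counts in GOF libraries 1 to 4 and 65, 0 and 0 counts in WT libraries 1 to 3. It was present in 1 library of each genotype and did not pass the filter. All 429 windows of 100 bases in Hist2h2aa2 occur in another gene's transcript, and 88.3% of those in Hist2h2aa1 do. Hist2h2aa2 itself had 48 counts in GOF 1 and 55 in WT 1, inside the range of the remaining libraries (29 to 62). Through the shared windows the split of reads between the twins is uncertain. The source of the Hist2h2aa1 counts in GOF 1 and WT 1 was not tested. Together the twins had 241, 38, 48 and 37 counts in GOF, against 120, 29 and 62 in WT. Of the remaining 17 H2A rows, Hist1h2ae was highest, with 25 counts over GOF and 12 over WT.

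H2B. The 4 tested H2B genes went different ways, and none of them passed the threshold. Hist2h2be (mm10 chr3:96221119-96223738), whose windows are found in no other gene, was at 5.82, 5.94, 4.92 and 6.41 FPKM in GOF, against 3.95, 4.24 and 5.92 FPKM in WT (log2 fold change 0.22, SE 0.18, edgeR adjusted p = 0.377). Hist3h2ba (mm10 chr11:58948920-58949533) was at 7.63, 4.37, 8.30 and 8.63 FPKM in GOF, against 11.3, 6.83 and 5.78 FPKM in WT (log2 fold change -0.22, SE 0.33, adjusted p = 0.647), and without WT 1 the value was 0.12. Both ranges were overlapping. Hist1h2bc (mm10 chr13:23684199-23692488) was at 3.64, 2.04, 4.67 and 7.11 FPKM in GOF, against 1.69, 3.08 and 1.86 FPKM in WT. Its highest values were those of GOF 4 and GOF 3, and GOF 2 lay among the WT libraries (log2 fold change 0.90, SE 0.46, edgeR adjusted p = 0.164). Hist1h2be (mm10 chr13:23583742-23621124), whose deposited locus spans far more than its coding exon and overlaps Gm11398, was at 0.174, 0.198, 0.256 and 0.188 FPKM in GOF, against 0.388, 0.230 and 0.443 FPKM in WT (log2 fold change -0.86, SE 0.35, adjusted p = 0.0907). GOF 3 and WT 2 crossed in order, and without WT 2 the gene passed as lower (log2 fold change -1.10, edgeR adjusted p = 0.0457). Hist1h2bg, the highest untested H2B row, had 8, 6, 6 and 7 counts in GOF libraries and 8, 5 and 6 in WT libraries. Another untested row, Hist1h2bf, had 3, 7, 5 and 4 counts in GOF libraries and 0, 1 and 2 in WT libraries, with no overlap, and was named after its values were seen.

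H3. The H3 rows were the lowest of the core histones, and Hist2h3c2 (mm10 chr3:96238108-96239127) was the 1 tested. It stood at 0.853, 0.833, 0.782 and 0.385 FPKM in GOF, against 0.879, 1.18 and 0.335 FPKM in WT, where the ranges overlapped (log2 fold change -0.24, SE 0.53, edgeR adjusted p = 0.767). Its direction turned without WT 2 (0.15). Hist1h3a, the highest of the untested H3 rows, had 6, 5, 6 and 5 counts in GOF libraries and 0, 7 and 0 in WT libraries.

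H4. Of the 12 tested genes, the 2 whose groups did not overlap were H4 genes. Hist1h4m (ENSMUSG00000069306, mm10 chr13:21811746-21812147, protein-coding) was the 1 histone gene past the threshold. It had 11, 12, 6 and 22 counts in GOF libraries and 0, 2 and 0 in WT libraries, which is 2.07 ± 1.11 FPKM in GOF (SD, n = 4) and 0.110 ± 0.191 FPKM in WT (SD, n = 3). The ratio of summed counts was 18.2 with an exact 95% counting interval of 4.79 to 154, and the log2 fold change was 3.90 with an SE of 0.98 (edgeR adjusted p = 0.0157). The gene passed the low-count filter only through its GOF counts, so a gene so near 0 in WT had to differ to be tested at all. Of its 100-base windows 88.1% occur in other genes. Without WT 3 the edgeR adjusted p of Hist1h4m was 0.0561, and without WT 2 its log2 fold change was 6.64. Over the alternatives in which Hist1h4m was tested the adjusted p ran between 0.00261 and 0.0632. Without GOF 1, GOF 2 or GOF 4, without GOF 2 and 4 together, and with a stricter filter, Hist1h4m did not pass the filter. GOF 4 had the most counts.

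Hist1h4i (mm10 chr13:22040636-22041362) was at 3.41, 3.15, 3.88 and 4.59 FPKM in GOF, against 0.569, 1.92 and 2.82 FPKM in WT. All 4 GOF libraries lay above all 3 WT libraries, but the spread within WT was wide and the gene did not pass (log2 fold change 1.01, SE 0.47, edgeR adjusted p = 0.138). In limma on log2(FPKM + 1) it did (0.86, adjusted p = 0.0454). Hist1h4d (deposited locus mm10 chr13:23581598-23581990) had 5, 10, 11 and 8 counts in GOF libraries and 6, 108 and 10 in WT libraries. The WT 2 count stood far above the other 6, which lay between 5 and 11. The log2 fold change of -2.40 (SE 0.90, edgeR adjusted p = 0.0733) rested on that library, and without it the value was -0.076 (adjusted p = 0.938). Without WT 1 or WT 3 the gene passed as lower (-2.91 and -2.86, adjusted p = 0.0277 and 0.0480). Hist2h4 (mm10 chr3:96261682-96263311) was at 0.821, 0.441, 0.301 and 0.522 FPKM in GOF, against 0.339, 1.14 and 0.754 FPKM in WT, again overlapping (log2 fold change -0.59, SE 0.52, adjusted p = 0.424). Of the 9 untested H4 rows, Hist1h4n had 7, 12, 5 and 10 counts in GOF libraries and 0, 11 and 0 in WT libraries.

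**Figure D4:**
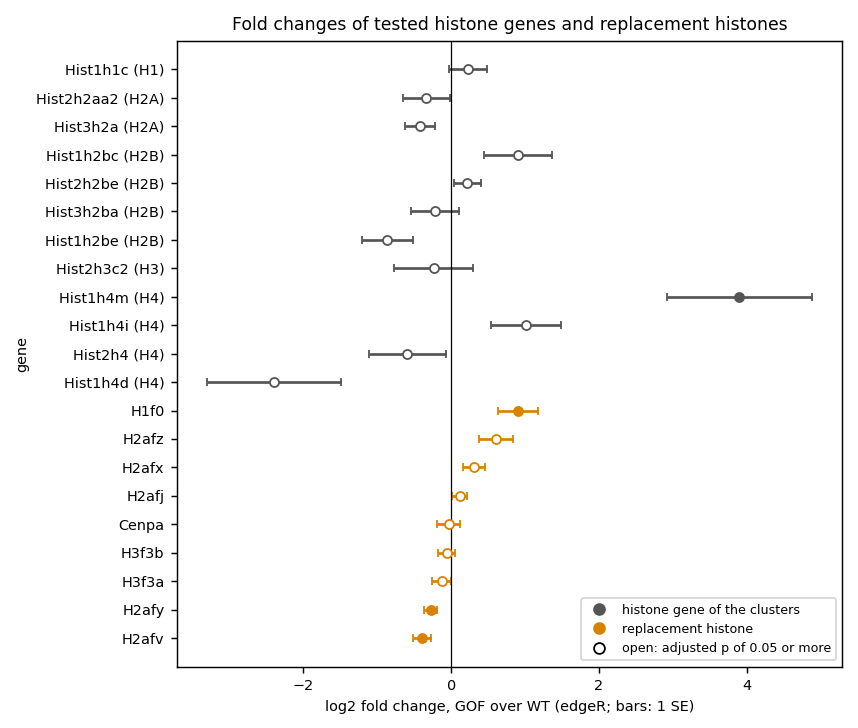
Log2 fold changes of GOF over WT from edgeR with bars of 1 SE, for the 12 tested histone genes (grey, type in brackets) and the 9 tested replacement histones (orange), with filled points for adjusted p under 0.05. Hist1h4m at 3.90 and Hist1h4d at -2.40 lie farthest out and have the widest bars, and all replacement histones lie between -0.40 and 0.91.

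Summed by type, the levels of the genotypes overlapped for each of the 5 types. H1 rows summed to 24.1 ± 3.63 FPKM in GOF (SD, n = 4) and 20.3 ± 5.48 FPKM in WT (SD, n = 3). H2B rows summed to 21.6 ± 5.0 FPKM in GOF and 17.4 ± 2.12 FPKM in WT. The H2A sum was 22.2 ± 13.3 FPKM in GOF and 20.5 ± 2.83 FPKM in WT, and without Hist2h2aa1 it was 16.7 ± 2.97 FPKM in GOF and 17.9 ± 1.73 FPKM in WT. In TMM-scaled CPM, with all rows kept, the H2A order was the other way, with 24.4 ± 9.40 CPM in GOF and 28.4 ± 1.55 CPM in WT. The H4 sum was 12.997 ± 2.69 FPKM in GOF and 12.8 ± 13.02 FPKM in WT. Without Hist1h4d, a choice made after its values were seen, the H4 sums were 10.4, 11.6, 9.03 and 15.4 FPKM in GOF libraries, against 2.68, 9.40 and 5.16 FPKM in WT libraries. These sums carry no test.

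**Figure D5:**
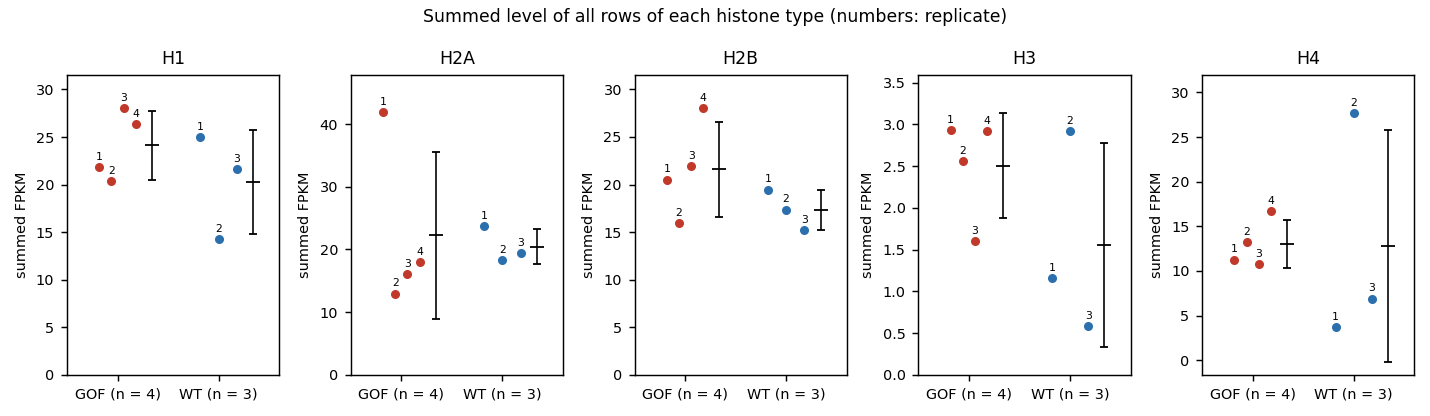
Summed FPKM of all rows of each histone type in each library (points, numbered by replicate), GOF on the left and WT on the right, with mean and SD. GOF 1 lies highest for H2A at 41.9 FPKM through Hist2h2aa1, and WT 2 highest for H4 at 27.7 FPKM through Hist1h4d.

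The rows below the filter were detected unevenly among libraries. Of these 59 rows 37, 28, 28 and 37 had a count in GOF libraries, against 11, 29 and 11 in WT libraries. Without Hist2h2aa1 they held 115, 112, 105 and 176 counts in GOF, against 52, 151 and 40 in WT. WT 2 thus lay inside the GOF range for the number of rows and for the counts, while WT 1 and WT 3 lay below it. Genes of any kind with a count numbered 15350 to 16030 in GOF, against 14096, 15264 and 14042 in WT, so WT 2 was the broadest WT library there too. The part of that breadth in the histone counts was not tested. Of all 71 rows 15 had 0 counts in WT and some in GOF, 54 counts in all and at most 10 for a row. The reverse held for 1 row, with 3 counts, in a comparison of 4 GOF and 3 WT libraries. The share of all genes with either pattern was not taken, so these counts describe the rows and are not read as particular to histone genes.

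Genes of DNA replication and mitosis were set beside the histone rows, as those histones are made in S phase. Of 36 listed, 18 rose and 3 fell (edgeR), where 31.3% of all tested genes changed. The median log2 fold change was 0.78. The 3 that fell were Cdt1, Lig1 and Mcm7, named after their values were seen. Their log2 fold changes were -0.605, -0.568 and -0.540 (edgeR adjusted p = 0.0101, 0.0158 and 0.00528). The genes described next are those of the list with the smallest p, and all of them rose. Top2a, a topoisomerase that untangles replicated DNA, was at 3.28 ± 0.628 FPKM in GOF (SD, n = 4) and 0.378 ± 0.101 FPKM in WT (SD, n = 3), a log2 fold change of 3.04 (SE 0.24, edgeR adjusted p = 3.17e-05). Mki67, a marker of cycling cells, stood at 3.46, 2.68, 2.95 and 1.91 FPKM in GOF, against 0.288, 0.390 and 0.115 FPKM in WT, with no overlap. E2f2, a transcription factor of the cycle, was at 13.8 FPKM in GOF and 2.81 FPKM in WT, and Cdk1, the mitotic kinase, at 0.704 FPKM in GOF and 0.0859 FPKM in WT. Among GOF libraries, GOF 4 had the lowest values of Mki67, Top2a and Cdk1, and the most counts in untested histone rows once Hist2h2aa1 was left out (GOF 1 had the most with it). This order rests on GOF 4 alone, and a relation between these genes and the histone counts was not tested.

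In the machinery that makes and trims histone mRNA, 1 of 23 genes rose and 5 fell, where 31.3% of all tested genes changed. E2f1, an activator of S phase genes, was at 1.39 ± 0.198 FPKM in GOF and 0.421 ± 0.0583 FPKM in WT (log2 fold change 1.65, SE 0.24, edgeR adjusted p = 0.00112). Lsm11, a protein of the U7 particle, fell by 0.61 on the log2 scale to 3.19 FPKM in GOF, against 4.59 FPKM in WT (adjusted p = 0.0246). Yy1, a zinc finger transcription factor, and Gon4l fell by 0.34 and 0.32 (adjusted p = 0.0230 and 0.0213). Slbp, the stem-loop binding protein, was at 3.82, 4.20, 3.15 and 4.00 FPKM in GOF libraries, against 3.45, 4.43 and 4.41 FPKM in WT libraries, and did not pass (edgeR adjusted p = 0.330). Npat, the activator of histone gene transcription, did not pass either (log2 fold change -0.27, adjusted p = 0.355). Slbp, Npat, H3f3a, H3f3b and H2afz were named after their values were seen.

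Histone chaperones, which carry histones to and from DNA, counted 3 genes of 21 that rose and 6 that fell, where 16.8% of all tested genes rose and 14.5% fell. The higher ones included Chaf1a and Chaf1b, subunits of the chromatin assembly factor that works at replication forks. Chaf1a was at 1.79 FPKM in GOF and 0.382 FPKM in WT (log2 fold change 2.14, SE 0.43, edgeR adjusted p = 0.00536), and Chaf1b at 3.96 FPKM in GOF and 2.41 FPKM in WT (0.64, adjusted p = 0.00567). Nap1l1 and Npm1 fell by 0.76 and 0.73 on the log2 scale (adjusted p = 0.000261 and 0.000509), and Npm1, nucleophosmin, was at 172 FPKM in GOF and 271 FPKM in WT.

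Among replacement histones 1 of 9 tested rose and 2 fell, a share near the 31.3% of all tested genes that changed. H1f0, the linker histone H1.0 of resting and differentiated cells, was at 17.8, 9.03, 18.2 and 10.3 FPKM in GOF, against 7.54, 7.54 and 5.88 FPKM in WT (log2 fold change 0.91, SE 0.27, edgeR adjusted p = 0.0307). GOF 1 and GOF 3 were highest. H2afv, an H2A.Z gene, fell by 0.40 and H2afy, macroH2A, by 0.28 (edgeR adjusted p = 0.0347 and 0.0470). H3f3a and H3f3b did not pass (log2 fold changes -0.13 and -0.06, adjusted p = 0.492 and 0.728), nor did H2afz (0.61, adjusted p = 0.0711).

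Markers of the sorted cell were present in every library. Cd4 averaged 228 FPKM in GOF and 148 FPKM in WT, and Cd3e 373 FPKM in GOF and 271 FPKM in WT. Of 7 naive CD4 markers 2 rose and 3 fell, with sums of 6126 to 6904 CPM in GOF and 5753 to 6774 in WT. Pik3cd, also named after its values were seen, was at 52.9 ± 10.3 FPKM in GOF (SD, n = 4) and 87.4 ± 24.8 FPKM in WT (SD, n = 3). The groups did not overlap, and Pik3cd passed as lower in GOF (log2 fold change -0.80, SE 0.20, edgeR adjusted p = 0.0154). Markers of other cells moved with genotype. Of 10 myeloid markers 9 rose, and their sum was 147 to 497 CPM in GOF libraries, against 43.0 to 78.6 in WT. All 8 neutrophil markers rose (59.1 to 205 in GOF, 0.466 to 7.24 in WT), as did 5 of 8 B cell markers (693 to 1119 in GOF, 340 to 420 in WT), 6 of 8 NK and CD8 markers (114 to 160 in GOF, 55.5 to 67.3 in WT) and 4 of 6 tested erythroid genes (19.5 to 72.9 in GOF, 4.30 to 17.9 in WT). Of 4 tested plasma cell markers 1 rose and 1 fell (102 to 146 in GOF, 64.1 to 125 in WT). Camp and Car1 were at 0 in the WT libraries. The myeloid, neutrophil, B cell and erythroid sums were highest in GOF 1 and GOF 3, as H1f0 was. Their part in the replication, histone and chaperone values was not tested. In bulk RNA more cells of a kind and more RNA per cell cannot be told apart.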

How the data were processed

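The authors deposited 1 table of 34745 genes with a raw count and an FPKM for each of 7 libraries. HISAT2 2.0.4, Cufflinks 2.1.1, Cuffdiff and the build mm10 appear in the submitters' processing notes. What each did, how reads were counted, the strand setting and the handling of multiply mapped reads are not given here, so values of histone genes with near-identical copies, and of overlapping genes, are uncertain. The deposited FPKM equals the count over a fixed gene length and the column total within 0.1% for 100% of values.

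Counts were tested with edgeR 4.0.16 (quasi-likelihood, filterByExpr, TMM; R 4.3.3) over all 12668 genes that passed, with Benjamini-Hochberg adjustment at 0.05. SEs come from the fold change and F statistic. DESeq2 1.42.0 and limma 3.58.1 were alternatives, as were other scalings, filters and left-out libraries. Intervals and floors cover counting error only. No library pair agreed within sampling noise. The same fit was tested on simulated data. Full values are given for members past the filter, any member called and the highest untested row of each type, and in each list for up to 4 genes past the threshold with the smallest p. Members and lists were chosen with earlier results of these data known. Transcript ends and shared windows come from GENCODE M21, promoters from RefSeq.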

Additional observations from a re-analysis of the deposited data

Results flagged for a closer look

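Of 71 sets of 4 GOF values checked for a library apart from the rest, 4 were flagged. Chance gives about 1 in 20, so that number is near what chance gives. The sets are not the 71 histone rows, since H3f3a and Yy1 are among them. The measure is the gap of the extreme library to its nearest neighbour over the range. Hist2h2aa1 was at 22.04 FPKM in GOF 1 and 0 in the other 3 libraries (1). Hist2h3c2 was low in GOF 4 at 0.385 FPKM, against 0.782 to 0.853 FPKM in the others (0.849). H3f3a was low in GOF 2 at 25.4 FPKM, against 34.4 to 35.8 FPKM (0.865), and Yy1 was high in GOF 2 at 42.5 FPKM, against 35.3 to 36.3 FPKM (0.87). The causes were not tested.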

How the results depend on the processing

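Over the 12 tested histone genes 195 alternative fold changes could be computed. Of these 185 kept direction and side of the threshold, 2 lost and 4 gained a call, and 4 changed sign. The sign changes were Hist1h1c without WT replicate 2 (-0.062), Hist3h2ba without WT replicate 1 (0.12), and Hist2h3c2 without WT replicate 2 (0.15) and with the replicate block (0.081). Leaving out 1 library, these ran between -0.062 and 0.47, -0.42 and 0.12, and -0.61 and 0.15. With the replicate block Hist1h4m was at 3.63 (edgeR adjusted p = 0.0632). The count of higher histone genes was 1 in the main fit, 0 with the stricter filter (10 counts in each library of a group), 0 with the replicate block, 0 without GOF replicates 2 and 4, and 2 in limma on log2(FPKM + 1). Leaving out 1 library gave 0 to 1 higher and 0 to 1 lower histone genes. Without GOF replicates 1 and 3, 1074 genes rose and 1050 fell, against 2130 and 1838 with all libraries. On column totals without TMM the counts were 2527 and 1428, and in limma on log2(FPKM + 1) 2598 and 1390. The log2 ratio of the H4 sum ran up to 0.90, the value without WT replicate 2, and down to -0.40, without WT replicate 1. The H3 ratio of 0.28 was 0.97 without WT replicate 2 and -0.12 without WT replicate 3, the H1 ratio of 0.20 was -0.043 without WT replicate 2, and the H2A ratio of -0.22 was 0.12 in deposited FPKM. The cause of these changes was not tested. Same-numbered WT and GOF libraries did not deviate together (correlations 0.03, 0.15 and -0.04), so the numbers were not used as pairs, and with the replicate block 1677 genes rose and 1519 fell. Settings without libraries GOF 1 and 3 or GOF 2 and 4 were chosen after seeing the data. With no filter 61 histone rows were tested, and 1 rose and 0 fell.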
